A study of Arabidopsis thaliana with 3 samples.

Results

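The comparison described here sets Arabidopsis thaliana wild-type cotyledon vasculature grown with the peptide CEP1 against the same tissue grown without it. Seedlings of both groups carried the wild-type genotype and were grown for 8 days on Murashige-Skoog agar at 22 °C in continuous light. The first group had 1 µM CEP1 in the medium for the whole of that time and the control group had 0 µM. Cotyledons were digested with enzymes and sonicated, vascular strands were picked out by hand, and the strands of 200 cotyledons gave the RNA for each array. The series holds 3 Affymetrix Arabidopsis Gene 1.0 ST arrays, of which 2 enter the comparison, 1 per group. The remaining array, from the receptor mutant cepr1-1 grown without added peptide, is used only for values set beside the others. No source used here gives the ecotype of the plants.

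A gene was included if its probe set is annotated with a single locus and if its brighter array reached the median of all measured genes on that array, called the floor below. This kept 8596 of the 16505 measured genes, and the brightest probe set stood for a locus with several. The values are log2 probe set levels, and each difference is the CEP1 array minus the control array on that scale. Since each group has 1 array, no difference has a replicate error or a p-value. Genes are described by size, at 2-fold (1 on the log2 scale) or at 1.5-fold (0.58). Levels of different genes come from different probes and are not compared with each other.

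CEP1 belongs to the C-terminally encoded peptides, short secreted signals that roots make when nitrogen runs low. The peptide travels to the shoot in the xylem and is perceived in the vasculature by the receptor kinase CEPR1. In response the shoot makes CEPD1 and CEPD2, small polypeptides of the CC-type glutaredoxin family, which move through the phloem to the root and raise nitrate uptake there. The comparison addresses which shoot vascular genes, these signals among them, differ when CEP1 is supplied from outside. CEP1, the other CEP peptides, CEPR1 and CEPR2 have no probe set named here and were not analysed.

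The 2 arrays differed little as a whole, and the larger differences lay mostly on the higher side. The median level over measured genes was 3.07 on the CEP1 array and 3.07 on the control array. Of the genes above the floor, 5742 (66.8%) had the same value on both arrays, 1605 were higher with CEP1 and 1249 were lower. Where a value differed, the median size was 0.14 on the log2 scale, about 1.1-fold. Many values also recur between genes, with 3814 different values on the CEP1 array and 3812 on the control array. How the array software gave many genes the same value is not known here.

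At 2-fold, 36 genes (0.419% of the genes above the floor) were higher with CEP1 and 12 (0.14%) were lower. At 1.5-fold, 135 (1.57%) were higher and 92 (1.07%) were lower. Both arrays were at or above their medians for 23 of the 36 higher genes and for 9 of the 12 lower genes. For the other 13 and 3 the dimmer value lies below its array's median, and no fold is given for them. When dim genes were damped with a pseudocount of 16, the 2-fold counts were 18 higher and 2 lower, and the 1.5-fold counts were 51 and 28. The genes next to the 2-fold limit were SCPL32 (1.03) and AT5G54165 (0.98) on the higher side and AT5G44680 (-1.0) and AT4G15660 (-0.98) on the lower.

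**Figure D1:**
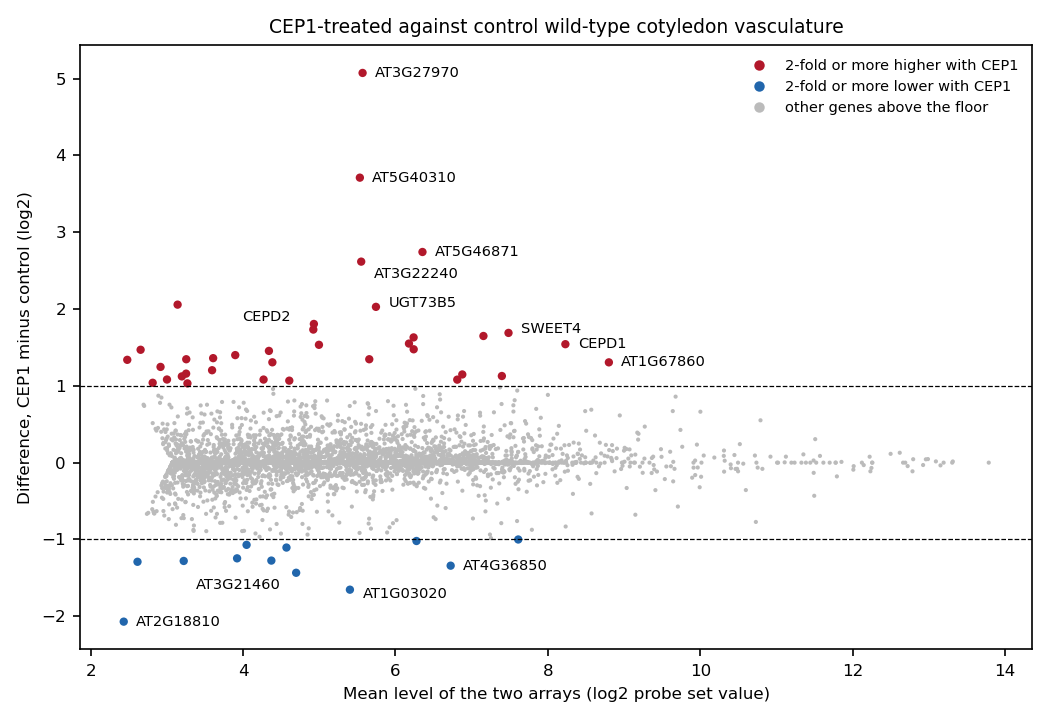
Difference of the CEP1 array minus the control array (y axis, log2) against the mean level of both arrays (x axis, log2 probe set value), 1 point per gene above the floor. Dashed lines mark 2-fold. The 36 red genes and 12 blue genes lie in the lower and middle parts of the range of levels, with none in the upper part. The point farthest from 0 is AT3G27970 (5.07), whose control value lies just under the median.

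Large differences were not restricted to dim genes. When the genes above the floor were split by mean level into 5 bins of about equal size, the brightest bin (mean level 5.87 to 13.79) held 11 of the 2-fold higher genes and 3 of the lower ones. The dimmest bin (2.43 to 3.58) held 10 and 3. At 1.5-fold in either direction, 3.98% of the brightest bin and 2.98% of the dimmest differed, against 1.45% to 3.08% of the bins between. The brightest bin held 47 higher and 21 lower genes at 1.5-fold, whereas the dimmest held 26 and 26.

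The largest differences belonged to loci for which neither the platform annotation nor RefSeq gives more than the locus number. AT3G27970 was 8.10 with CEP1 and 3.03 in the control, the second value just under that array's median. AT5G40310 was 7.39 with CEP1 and 3.68 in the control, 13.1-fold higher. Both genes were thus well above the median on the CEP1 array and near it in the control. AT5G46871 was 7.73 and 4.98, 6.69-fold higher, and AT3G22240 was 6.86 and 4.24, 6.13-fold higher. On the cepr1-1 array AT3G27970 and AT5G40310 were 3.47 and 4.17, close to the control, whereas AT5G46871 and AT3G22240 were 2.05 and 3.15, below it.

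Other loci without a name were above the median on both arrays. AT1G67860 was 9.45 with CEP1 and 8.15 in the control (2.47-fold), AT3G46880 was 7.98 and 6.33 (3.14-fold), and AT5G19440 was 7.96 and 6.83 (2.19-fold). AT3G24230 was 7.35 and 6.27 (2.11-fold), AT1G63530 was 7.05 and 5.42 (3.1-fold), and AT2G42520 was 6.95 and 5.40 (2.93-fold). For these 6 genes the lower of the 2 values is at least 5.40, well above the floor. AT3G13000 (6.33 and 4.98), AT3G47090 (5.83 and 4.03), AT5G18470 (5.07 and 3.61) and AT4G29700 (5.04 and 3.73) were between 2.47-fold and 3.5-fold higher. AT2G44280 (5.14 and 4.07), AT2G05632 (4.81 and 3.73) and AT5G09800 (4.60 and 3.2) complete this group, with AT2G07722 described below among the chromosome 2 loci.

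The dim part of the 36 held 10 genes beside AT3G27970 and the UGT genes, each with a control value under the median. AT3G13130 was 4.17 with CEP1 and 2.11 in the control, AT3G11250 was 4.29 and 2.93, and ATSMC2, a gene of the SMC family of chromosome structure proteins, was 4.19 and 2.99. AT4G28360 (3.83 and 2.67), SCPL32, a serine carboxypeptidase-like gene (3.79 and 2.75), AT2G44290 (3.76 and 2.64), AT5G20400 (3.54 and 2.29), AT1G61330 (3.54 and 2.46), AT3G48060 (3.33 and 2.29) and AT2G47950 (3.15 and 1.81) completed them. Their CEP1 levels, between 3.15 and 4.29, were also not far above the median of 3.07.

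**Figure D2:**
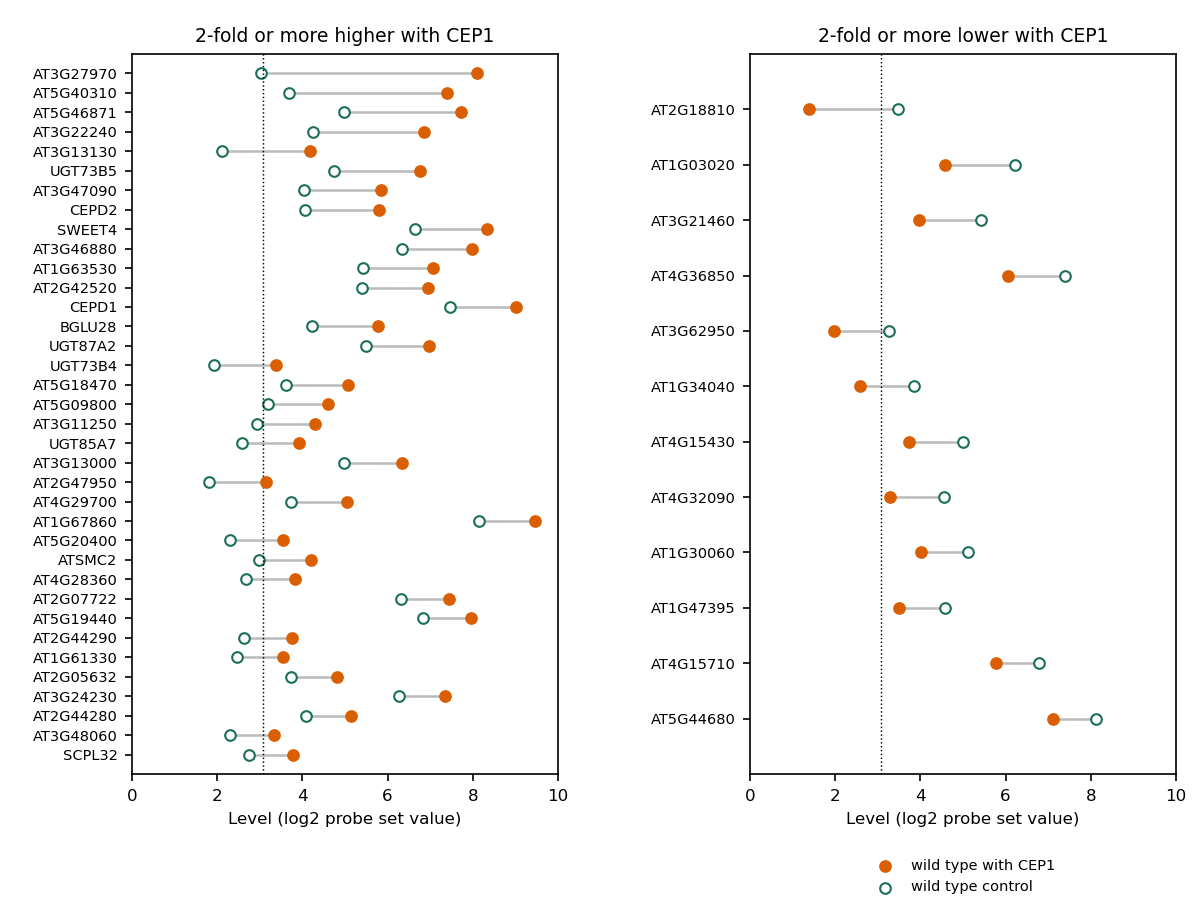
Level (x axis, log2 probe set value) of each gene at least 2-fold higher (left) or lower (right) with CEP1, as a filled point for the CEP1 array and an open point for the control array. The dotted line is the median of the control array, 3.07. Most pairs, CEPD1 and AT1G67860 among them, lie to the right of it on both arrays.

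CEPD1 and CEPD2, the phloem-mobile signals introduced above, were both among the higher genes. CEPD1 (AT1G06830) was 9.0 with CEP1 and 7.46 in the control, 2.91-fold higher. CEPD2 (AT2G47880) was 5.79 with CEP1 and 4.06 in the control, 3.32-fold higher. Both were above the floor on each array.

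Their family as a whole did not share this direction. CC-type glutaredoxins are plant-specific proteins with a cysteine pair in the active site, and several bind TGA transcription factors. Of 21 listed members 20 were measured, 15 of them above the floor. At 1.5-fold, 2 of the 15 were higher with CEP1, CEPD1 and CEPD2, and 6 were lower. That is 13.3% and 40.0%, where 1.57% and 1.07% of all genes above the floor lie. AT3G62950, among the lower 6, passed the floor through the control array only. Their median difference was -0.28, against 0 for all genes above the floor, and it was 0.00 over all 20 measured members.

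The lower members covered a wide range of levels. AT1G03020 was 4.58 with CEP1 and 6.23 in the control, 3.15-fold lower, and AT3G21460 was 3.98 and 5.41, 2.7-fold lower. AT3G62950 was 1.97 with CEP1, below the median of that array, and 3.26 in the control. These 3 passed the 2-fold limit. In the tandem group on chromosome 4, AT4G15660 was 6.76 with CEP1 and 7.74 in the control, and AT4G15680 was 7.35 and 8.23. AT4G15670 followed at 6.94 and 7.43, under 1.5-fold, while AT4G15700, from the same tandem group, was 7.88 and 7.85. AT3G62930 was 3.27 and 3.89, 1.54-fold lower.

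Other bright members differed by less than 1.5-fold. AT5G18600 was 8.42 with CEP1 and 8.69 in the control, and AT2G30540 was 6.96 and 7.15. AT2G47870, whose locus number is next to that of CEPD2, was 5.33 on both arrays. GRX480, which acts in salicylate and jasmonate signalling, was 3.2 and 3.18, and ROXY2, an anther development gene, was 3.37 on both. The remaining 5, with ROXY1 at 1.34 on both arrays and AT5G11930 at 2.76 and 2.29, lay below the floor. Close copies in this family may share probe signal, and that was not tested.

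**Figure D3:**
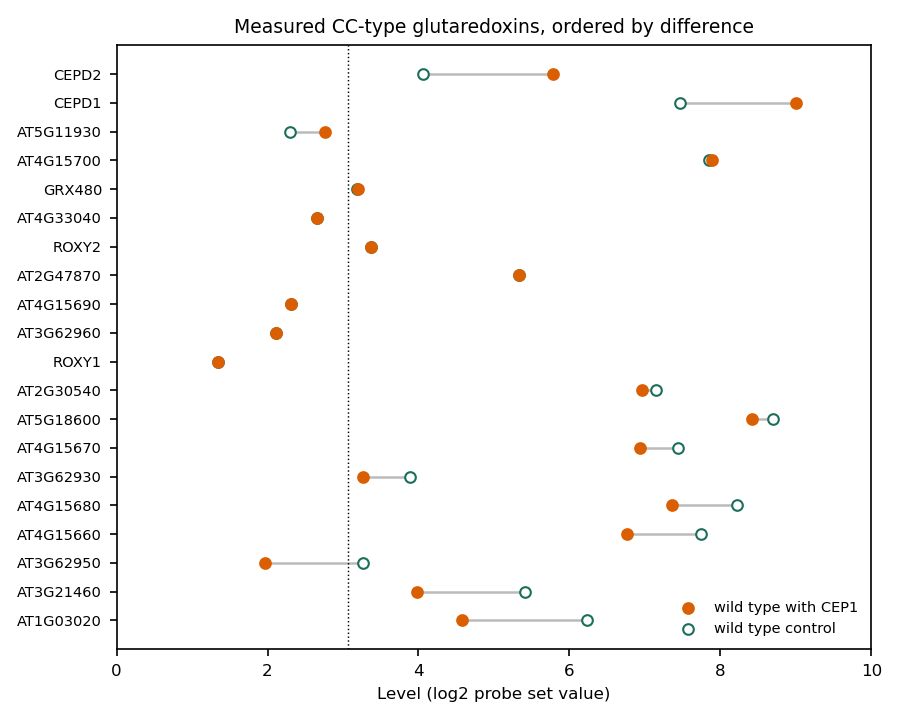
Level (x axis, log2 probe set value) of the 20 measured CC-type glutaredoxins on the CEP1 array (filled) and the control array (open), ordered by difference. The dotted line is the control median, 3.07. CEPD2 and CEPD1 lie at the top with higher levels on the CEP1 array, and AT1G03020 and AT3G21460 lie at the bottom with lower ones.

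Among families recognised by gene symbol, the UDP-glycosyltransferases had the most higher members. These enzymes transfer a sugar from a nucleotide donor to hormones, defence metabolites and foreign compounds. Of 51 measured genes with a UGT symbol 26 were above the floor. Loci without a symbol were assigned to no family, and 1762 of the 16505 measured genes have a symbol. Members of this family without one are therefore not counted, whichever way they differ. The counts below, those of lower genes included, hold only for genes with a UGT symbol. At 1.5-fold, 6 of the 26 (23.1%) were higher with CEP1 and 0 were lower, where 1.57% and 1.07% of all genes lie, and 15 had equal values. Of these 6, UGT73B4, UGT85A7 and UGT76E11 passed the floor through the CEP1 array only. The share of 23.1% thus rests in part on the same difference that it counts. The largest difference was that of UGT73B5, at 6.76 with CEP1 and 4.73 in the control, 4.08-fold higher. UGT87A2 was 6.98 and 5.50, 2.78-fold higher. These 2 genes were above the median on both arrays.

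The other higher members lay nearer the floor. UGT73B4, the neighbour of UGT73B5, was 3.39 with CEP1 and 1.92 in the control. UGT85A7 was 3.93 and 2.58, and UGT76E11 was 3.32 and 2.45, each with a control value under the median. UGT73B2 was 5.15 and 4.51, 1.56-fold higher. In subfamily UGT73B, whose members act on flavonoids and stress metabolites, 3 of the 4 genes above the floor were thus at least 1.5-fold higher, and UGT73B1 was 4.58 and 4.50. UGT73B3, below the floor, was 2.84 and 2.73. UGT73B4 and UGT73B5 are close in sequence as well as in position, and signal shared between their probes was not tested.

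Outside the subfamilies of these higher genes, no gene above the floor with a UGT symbol passed 1.5-fold. Several of the other subfamilies, UGT72B and UGT84A among them, had no such gene above the floor, and several had only 1. UGT74B1, which catalyses a step of glucosinolate core synthesis, was 5.35 with CEP1 and 4.86 in the control, and UGT85A2 was 5.39 and 5.16. The 3 UGT71C and 3 UGT71B genes above the floor ranged from 0 to 0.02 in difference, and UGT78D2, a flavonoid 3-O-glucosyltransferase, was 4.17 on both arrays. Among genes with a UGT symbol, those higher at 1.5-fold were in subfamilies UGT73B, UGT76E, UGT85A and UGT87A, with 1 gene each outside UGT73B.

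**Figure D4:**
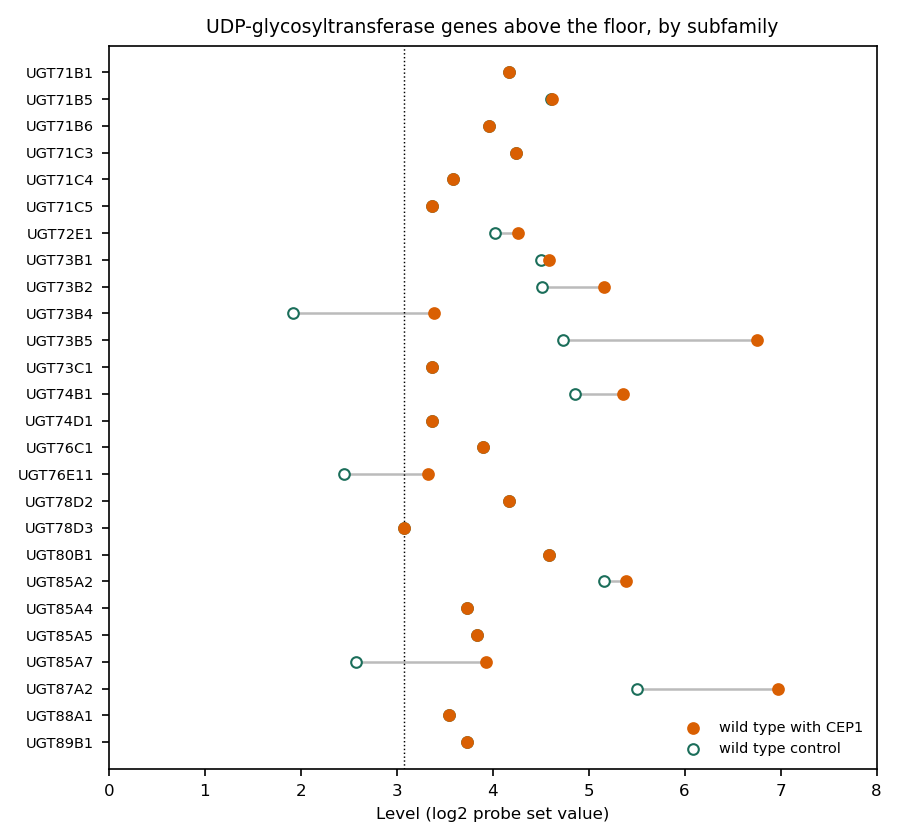
Level (x axis, log2 probe set value) of the 26 genes above the floor with a UGT symbol on the CEP1 array (filled) and the control array (open), ordered by subfamily. The dotted line is the control median, 3.07. UGT73B5 and UGT87A2 are separated by more than 2-fold above that line, and in 15 genes the points coincide.

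Enzymes acting on the products of such reactions gave a smaller count. Of 22 measured genes with a beta-glucosidase (BGLU) symbol 10 were above the floor. Of these 10, 2 passed 1.5-fold on the higher side and 0 on the lower, where 1.57% and 1.07% of all genes above the floor lie. BGLU28, a gene induced by sulfur starvation, was 5.76 with CEP1 and 4.23 in the control, 2.90-fold higher, and BGLU21 was 3.77 and 3.13. BGLU44 (7.77 and 7.26), BGLU33 (9.83 and 10.15) and BGLU40 (5.45 and 5.89) differed by less and in both directions. In the list of detoxification and oxidative stress genes, 8 of 15 measured members were above the floor and 3 were at least 1.5-fold higher, where 1.57% of all genes lie, all 3 from UGT73B. UGT73B4 among them passed the floor through the CEP1 array only. The glutathione transferase genes GSTU20, at 10.07 with CEP1 and 9.84 in the control, and GSTU27, at 5.18 and 5.15, and the alkenal reductase gene AER, at 4.43 and 4.17, were under that limit. The median of these 8 was 0.25, and it was 0.08 over all 15.

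SWEET4 was the sugar transporter with the largest difference. SWEET proteins let sugars pass across the plasma membrane or tonoplast down their gradient. SWEET4 was 8.33 with CEP1 and 6.64 in the control, 3.22-fold higher, with both values well above the median. SWEET13 was 6.50 and 5.95, 1.46-fold higher, and SWEET2, a vacuolar transporter, was 3.22 and 3.66. SWEET11, which exports sucrose for phloem loading, was 11.50 and 11.47. SWEET1 (5.12), the vacuolar transporters TMT1 (5.73) and TMT2 (4.86) and SWEET10 (3.5) had equal values on both arrays. Of 18 measured sugar transporters 8 were above the floor and 1, SWEET4, passed 1.5-fold, where 1.57% of all genes were higher and 1.07% lower. The sucrose phosphate synthase gene ATSPS4F, outside that list, was 7.88 with CEP1 and 7.22 in the control, 1.59-fold higher.

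Of 23 listed sulfate starvation genes 3 were measured, and of 32 listed glucosinolate genes 4, so neither group is described as a whole. Above the floor, 2 of 2 sulfate starvation genes and 1 of 4 glucosinolate genes passed 1.5-fold on the higher side. On the lower side 0 did, where 1.57% of all genes above the floor were higher and 1.07% lower. APS3, which encodes an ATP sulfurylase that activates sulfate, was 7.19 with CEP1 and 6.59 in the control, 1.51-fold higher. With BGLU28 it makes up the 2 members of the sulfate starvation list above the floor, and APS4, at 1.66 on both arrays, lay below it. Of the 4 measured glucosinolate genes, AOP3, whose enzyme modifies aliphatic glucosinolate side chains, was 9.97 and 9.30, 1.59-fold higher. The glucosinolate transporter gene GTR2 was 11.07 and 10.51, 1.47-fold higher, and UGT74B1 has been given above, whereas GTR1 was 6.45 on both arrays. The median of these 4 was 0.52, with 1 gene past 1.5-fold, where 1.57% of all genes were higher.

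Among secreted peptides and wall proteins the picture was mixed. CLE44, whose peptide keeps procambial cells from becoming xylem, was 4.87 with CEP1 and 3.91 in the control, 1.94-fold higher. CLE41, which encodes the same mature peptide, was 8.31 and 7.93, 1.3-fold higher. CLE25 (4.52) and CLE40 (3.49) were equal on both arrays, and CLE26, a phloem-expressed gene, was 5.25 and 5.47. CLE44 was the only one of the 5 CLE genes above the floor to pass 1.5-fold, where 1.57% of all genes were higher and 1.07% lower, and 5 more lay below the floor.

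Expansins, which loosen cell walls during growth, went both ways. Of 22 measured genes 18 were above the floor, 12 of them with equal values. EXPA9 was 6.48 with CEP1 and 5.82 in the control (1.58-fold higher), and EXPA4, just under the limit, was 5.35 and 4.77. EXPA25 was 4.87 and 5.65 (1.72-fold lower), EXLA1 was 6.65 and 7.38 (1.65-fold lower) and EXPA16 was 4.12 and 4.71 (1.50-fold lower). Thus 1 was higher and 3 were lower at 1.5-fold, where 1.57% and 1.07% of all genes lie, and the median was 0.

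Another 99 genes were between 1.5-fold and 2-fold higher and 80 were between these limits lower. The largest higher ones with both arrays above the median were AT5G54165 (7.86 with CEP1 and 6.88 in the control), AT1G71695 (6.74 and 5.78) and CLE44. They were followed by FMO, annotated as a flavin monooxygenase, at 8.07 and 7.13, AT3G45710 (4.85 and 3.95) and AT2G28510 (7.03 and 6.14). AT2G41380 (6.80 and 5.93), AT1G67865 (10.11 and 9.25), AT5G64250 (7.0 and 6.18), AT2G07785 (7.97 and 7.16) and AT4G19880 (5.08 and 4.27) came next among those reported. Most of these genes were already well above the floor in the control.

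Of the genes at least 1.5-fold higher, 26 have a symbol in RefSeq, and those not yet given were looked at because the tables name them. LPR2, a multicopper oxidase gene of the root response to low phosphate, was 6.02 with CEP1 and 5.26 in the control. The chloroplast chaperonin gene Cpn60beta2 was 5.77 and 5.03, the SAL phosphatase gene SAL2 was 5.29 and 4.58, and the GSK3-type kinase gene ATSK12 was 8.20 and 7.50. ARL, an ARGOS-like growth gene, was 5.96 and 5.33, and ATL4H, which encodes a RING-type protein, was 7.42 and 6.81. The mitochondrial NAD(P)H dehydrogenase gene NDB2 was 6.79 and 6.20, and the peroxidase gene Prx37 was 3.62 and 2.91. AT5G64120, a peroxidase gene by its RefSeq synonym, was 7.77 and 7.01. All of these were less than 1.8-fold apart where both values are above the median.

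Genes lower with CEP1 carried fewer names. No 2-fold lower gene has a RefSeq symbol. AT2G18810 had the largest difference, with 1.4 on the CEP1 array, below its median, and 3.47 in the control. AT4G36850 was 6.05 and 7.39, 2.53-fold lower, AT5G44680 was 7.11 and 8.11, 2.0-fold lower, and AT4G15710 was 5.77 and 6.79, 2.03-fold lower. All 3 were well above the median on both arrays. AT4G15430 (3.73 and 5.01), AT4G32090 (3.3 and 4.54), AT1G30060 (4.02 and 5.12) and AT1G47395 (3.51 and 4.58) were between 2.1-fold and 2.42-fold lower. AT1G34040 was 2.58 with CEP1, below the median, and 3.86 in the control.

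Between 1.5-fold and 2-fold lower, the largest with both values above the median were AT4G15660, AT1G48720 (3.73 with CEP1 and 4.70 in the control), AT1G62000 (4.38 and 5.31) and AT1G33811 (6.77 and 7.71). AT2G24990 (4.04 and 4.96), AT5G02540 (3.70 and 4.62), AT3G06070 (5.07 and 5.99) and AT5G14120 (5.44 and 6.35) followed, each 1.88-fold to 1.9-fold lower. AT4G31000 (3.07 and 3.96), AT3G29639 (3.54 and 4.43), AT1G47400 (3.57 and 4.46) and AT4G15680 completed the 12. The 9 lower genes with a symbol include, beside the 3 expansins, the 7SL RNA of the signal recognition particle, AT7SL-1, at 8.24 and 8.90. The cytochrome P450 gene CYP71B36 (4.29 and 4.92), the leucine zipper gene BZIP24 (4.38 and 5.03), the DNA repair gene BRCA2B (4.33 and 4.98) and the SKP1-like gene SK15 (3.96 and 4.58) were 1.54-fold to 1.57-fold lower. KIN1, a cold-induced gene, was 2.91 with CEP1 and 3.80 in the control.

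The measured members of the remaining gene lists showed small or no differences, apart from KIN1. Most listed genes were not measured, so these values do not describe the responses as a whole. Measured were 4 of 35 jasmonate, wounding and touch genes, 3 of 30 salicylate and defence genes and 11 of 40 auxin genes. For abscisic acid and cold 6 of 27 were measured, and for the circadian clock 1 of 20. For abscisic acid and cold response, 4 of 6 measured genes were above the floor, with a median of 0.20, and KIN2 (9.33 with CEP1 and 9.03 in the control), COR15A (7.10 and 6.71) and COR47 (7.51 and 7.41) were under 1.5-fold, with KIN1 past it on the lower side. The median of this list was 0.08 after quantile normalization of the arrays. The touch- and wound-response genes ZAT10 (9.38 and 9.0), CML38 (6.71 and 6.72) and CML37 (5.67 and 5.69) and the ubiquitin ligase genes PUB22 (4.58 on both), PUB23 (6.22 and 6.37) and PUB24 (7.64 and 7.55) were under 1.5-fold. So were the auxin genes GH3.5 (5.17 on both) and HAT2 (7.96 and 7.97) and the clock gene GI (7.03 and 6.78). The iron regulators PYE (5.62 on both), bHLH104 (4.58 on both), bHLH115 (6.18 on both) and ILR3 (7.71 and 7.67) were under 1.5-fold too. Of 30 listed iron deficiency genes, 5 were measured under their listed names and these 4 were above the floor. Iron deficiency genes given in this report by locus number alone, lower ones included, may be missing from that list. The values of these 4 therefore do not describe iron deficiency genes as a whole. NRT2.5, the 1 measured nitrate transporter of the list (1.99 and 1.9), and the cytokinin response genes ARR15 (1.69 on both) and ARR16 (1.73 and 1.54) lay below the floor. The lists of nitrogen assimilation and of phosphate starvation had no member measured here.

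**Figure D5:**
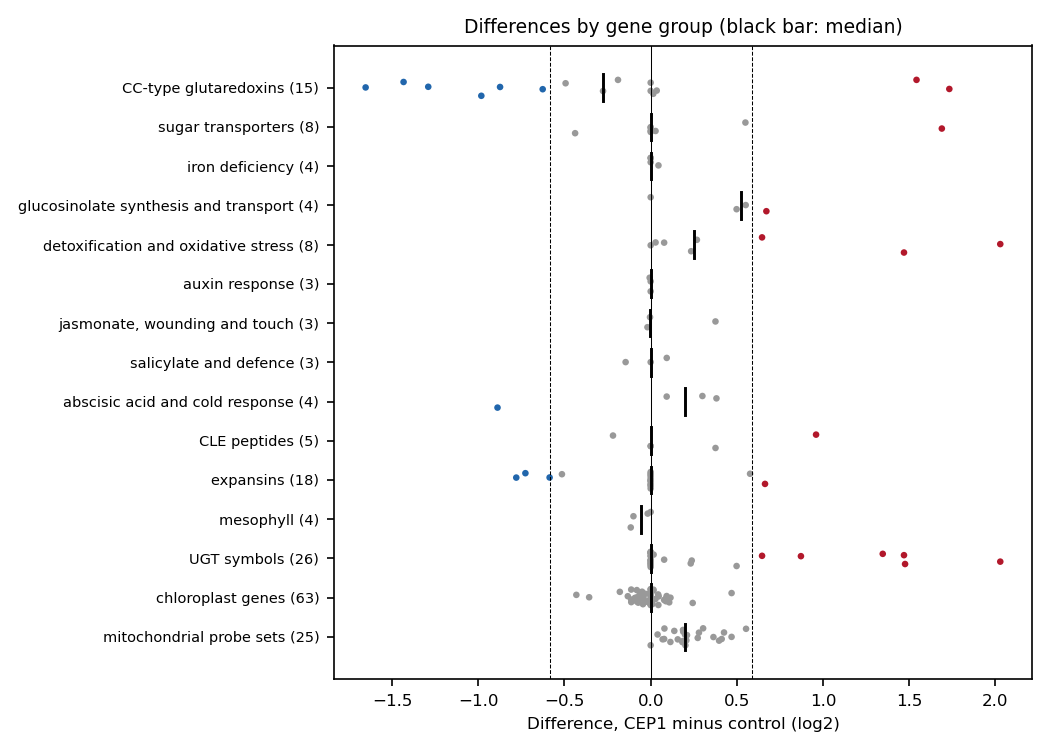
Difference of the CEP1 array minus the control array (x axis, log2) for the genes above the floor of each list with at least 3 of them, for the UGT genes, and for the organelle groups, with the number of points in brackets. Red and blue points are at least 1.5-fold higher and lower, and black bars are medians. Genes with a UGT symbol lie at or to the right of 0, and loci of that family without a symbol are not shown. The CC-type glutaredoxins extend both ways, and the mitochondrial probe sets lie at or to the right of 0.

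Few markers of cell types were measured, and the vascular ones were about equal on both arrays. Of the 15 phloem markers listed, SWEET11 was above the floor at the values given, and OPS was below it at 2.91 on both. Of 15 xylem and procambium markers IRX10, a xylan synthesis gene, was measured, at 4.52 on both. The mesophyll genes RCA (9.37 with CEP1 and 9.49 in the control), SBPASE (7.45 and 7.55), PORB (7.16 and 7.18) and PRK (5.74 on both), 4 of 20 listed, were detected on both arrays and differed by at most 0.12. In the epidermis and guard cell list the stomatal gene FAMA was 4.86 with CEP1 and 5.37 in the control, and SPCH and MUTE, at 1.68 and 1.25 on both arrays, were below the floor. Fewer cells of a type and less RNA per cell cannot be told apart in RNA from whole strands, and a part of cell mix in the differences was not tested.

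Transcripts of the mitochondrial genome were slightly higher on the CEP1 array. This group was singled out after its values were seen. The platform annotation gives mitochondrial gene names (nad, cox, ccb, atp1, matR) to 25 probe sets outside the 16505 genes, and 24 of them were higher with CEP1, 0 were lower and 1 was equal. The differences ranged from 0 to 0.55 with a median of 0.20, or 1.15-fold, so none reached 1.5-fold. The oxidase subunit gene cox2 was 11.11 with CEP1 and 10.70 in the control, matR was 9.38 and 8.91, nad7 was 11.67 and 11.47, and cox1 was 13.02 and 12.94. After quantile normalization 22 were higher and 2 lower, with a median of 0.18. Probe sets of 1 transcript unit or of 1 gene are not independent of each other.

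Other bright transcripts did not show this shift. Of 63 chloroplast genes, all above the floor with a median level of 11.39 on both arrays, 16 were higher with CEP1, 23 were lower and 24 were equal, and 0 reached 1.5-fold. Among the 67 nuclear genes with a mean level of at least 9, 36 were higher and 25 lower, with a median of 0.03. These 67 include loci of the chromosome 2 stretch described next, such as AT2G07741 (12.68 with CEP1 and 12.55 in the control). On the cepr1-1 array 13 of the 25 mitochondrial probe sets were higher than in the control and 8 were lower, with a median difference of 0.00.

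A stretch of nuclear loci on chromosome 2, numbered AT2G07667 to AT2G07830, leaned the same way as the mitochondrial probe sets. In Arabidopsis this chromosome carries a large insertion of mitochondrial DNA near its centromere. Of 51 measured loci in the stretch 49 were above the floor, and 34 were higher with CEP1, 2 were lower and 13 were equal. On the rest of chromosome 2, 215 were higher and 187 lower. AT2G07722 (7.45 with CEP1 and 6.30 in the control), AT2G07785 (7.97 and 7.16) and AT2G07672 (6.29 and 5.67) passed 1.5-fold. AT2G07722 has 2 further probe sets, and each of these was 6.44 with CEP1 and 6.23 in the control, a difference of 0.21 where the brightest probe set gave 1.15. Signal from mitochondrial transcripts on these probes was not tested.

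Several of the genes that differed lie near each other. In the gene order of the TAIR10.1 assembly, 22 of the 227 genes at 1.5-fold fell into 9 runs. At this limit 1.57% of all genes above the floor were higher and 1.07% lower. How many runs 227 genes placed at random would form was not calculated, so the count is not read as clustering. Neighbours in a run were at most 3 measured genes apart. Within each of the 9 runs the genes at 1.5-fold differed in the same direction. Measured genes under 1.5-fold can lie between them and are not counted. AT4G15700, between AT4G15680 and AT4G15710, is such a gene, at 7.88 with CEP1 and 7.85 in the control. The longest run held AT1G67850 (7.43 with CEP1 and 6.78 in the control), AT1G67860, AT1G67865 and AT1G67890 (3.58 and 2.95), all higher. AT2G32200 (7.92 and 7.17), AT2G32210 (4.12 and 3.33) and AT2G32220 (4.70 and 4.03) formed another. The pair AT2G44280 and AT2G44290 (3.76 and 2.64), the pair UGT73B5 and UGT73B4, CEPD2 with AT2G47950 (3.15 and 1.81), and AT3G27970 with SWEET4 were also higher. The 3 lower runs were AT1G47395 with AT1G47400, the glutaredoxins AT3G62930 and AT3G62950, and AT4G15660, AT4G15680 and AT4G15710. Some of these runs hold close copies, and signal shared between their probes was not tested.

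For the genes with the largest differences the cepr1-1 array gives a further value to set against the same control array, so the differences of CEP1 and of cepr1-1 share that array. CEPD1 was 9.0 with CEP1, 3.39 in cepr1-1 and 7.46 in the control, and CEPD2 was 5.79, 1.78 and 4.06. UGT73B5 was 6.76 with CEP1, 3.22 in cepr1-1 and 4.73 in the control, SWEET4 was 8.33, 5.36 and 6.64, and AT3G24230 was 7.35, 3.54 and 6.27. In these 5 genes the mutant lay below the control and the CEP1 array above it. BGLU28 was instead 5.76 with CEP1, 5.00 in cepr1-1 and 4.23 in the control, and UGT85A7 was 3.93, 3.61 and 2.58. For AT2G42520, at 6.95 with CEP1 and 5.40 on both other arrays, the mutant equalled the control. UGT87A2 was 6.98 with CEP1, 5.16 in cepr1-1 and 5.50 in the control, and AT1G63530 was 7.05, 5.27 and 5.42, again with the mutant close to the control. Of the lower genes, AT1G03020 was 4.58 with CEP1, 7.53 in cepr1-1 and 6.23 in the control, and AT4G36850 was 6.05, 8.00 and 7.39, whereas AT4G15430 was 3.73, 3.56 and 5.01.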

How the data were processed

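RNA from hand-collected cotyledon vasculature was hybridised to Affymetrix Arabidopsis Gene 1.0 ST arrays, 1 per group. The deposited values are log2 probe set levels, a scale read from their range. Per the submitters' processing notes the authors used Affymetrix Expression Console 1.3. No source used here names the normalization or the probe summary. The arrays were used as deposited, and their number, 1 per group, limits the precision.

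Of 38408 probe sets, 16722 are annotated with 1 gene, 759 with several and 20927 are unlisted. Names came from RefSeq (TAIR10.1 assembly), which matched 16574 probe sets by gene ID and 96 by locus. The other 52 were left out of the genes. CEPD1 and CEPD2 are the study's names. No coordinates are printed, since the array's build is not given.

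Differences, the floor and the size rules are described with the results, and the calculation was tested on simulated data. Python 3.11.15 with pandas 2.3.3 and statsmodels 0.14.6 was used. The 24 gene lists held 680 entries, 138 of them measured, for 137 different genes, and families of at least 6 genes above the floor were read from symbols, in place of the planned product names, 23 in all. Members and lists were chosen with earlier results of these data known. Named genes are those 2-fold apart, the 12 largest per direction between 1.5-fold and 2-fold with both arrays above the median, list or family members at 1.5-fold, the CC-type glutaredoxins, and cell type markers. Genes given for their symbol, small members given for contrast, the organelle groups and the chromosome 2 stretch were chosen after their values were seen. One gene that this rule names, and its family, are not reported here. Alternatives were quantile normalization, lowess trend removal, a pseudocount of 16, other filters on dim genes and the mean of a locus's probe sets.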

Additional observations from a re-analysis of the deposited data

How the results depend on the processing

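Each group has 1 array, so no alternative measures the error between plants. Background intensities are not part of the table, so signal over background is not given. No paired analysis was possible because each group has 1 array and no test was made. The 2-fold counts of 36 higher and 12 lower became 36 and 14 after quantile normalization (111 and 99 at 1.5-fold), 36 and 12 with the trend removed, and 35 and 12 with the mean of all probe sets. With a pseudocount of 16 they were 18 higher and 2 lower, and at 1.5-fold 51 and 28, since this setting damps dim genes. Without a filter on dim genes 37 were higher and 22 lower. With both arrays required at or above their medians 23 were higher and 9 lower.

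None of the 227 differences past 1.5-fold changed sign after quantile normalization or with the mean of all probe sets. Removing the trend left these differences as they were, and the pseudocount and the filters cannot turn a sign. Of the 48 genes 2-fold apart, 48 stayed past 2-fold after quantile normalization and 20 with the pseudocount. With the mean of its probe sets AT2G07722 was under 2-fold. The median of the CC-type glutaredoxins was 0.00 over its 20 measured genes when dim ones were kept. Under the same setting the median was 0.0781 for the detoxification list, 0.1484 for the jasmonate list and 0.0464 for the abscisic acid and cold list. The last was also 0.0797 after quantile normalization and 0.30 with both arrays above their medians. The alternative for the mitochondrial probe sets was chosen after seeing the data.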

Other observations

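Probe sets without a gene in the annotation used here differed more often than the named genes. Of 10322 unlisted probe sets whose brighter array was at or above its median over all probe sets, 400 passed 2-fold on the higher side with CEP1 and 289 on the lower, 6.68% in all. Those with IDs below the lowest listed ID were 37.4% apart by 2-fold among 864, with 159 higher and 164 lower, and 3.1% of them had equal values. Of the other 9458, 241 were higher and 125 lower, 3.87% in all, and 49.8% had equal values. What these probe sets measure was not analysed here.

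Beside AT2G07722, whose other probe sets differed by 0.21 in the same direction, 2 genes past 1.5-fold have a further probe set, and it was equal on both arrays. AT2G35640 was 5.00 with CEP1 and 4.34 in the control by its brightest probe set and 3.48 on both by the other. AT5G63190 was 5.64 and 6.39 by its brightest and 3.18 on both by the other.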
